A study of Homo sapiens with 12 samples.

Results

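The mRNAs of 49 DNA damage checkpoint and repair genes were followed in A375 cells exposed to MAPK inhibitors (MAPKi) or deprived of glutamine (Gln). The genes were given by name, from repair pathways, with earlier results of these data known. Each was found by its symbol among the 44659 genes of the count table. A375 cells are an established line of human melanoma with mutated BRAF. MAPKi-treated cells received 500 nM vemurafenib, a BRAF inhibitor, together with 500 nM cobimetinib, a MEK inhibitor, for 24 h, and their controls received the solvent DMSO. In the other experiment, cells were kept for 24 h in medium without Gln or in CTRL medium with 2 mM Gln. Each of the 4 groups had 3 libraries of ribosomal RNA-depleted RNA, which the sample labels describe as cytoplasmic and the methods of the study as total RNA. The labels put the 6 libraries of the MAPKi experiment in one sequencing batch and the 6 of the Gln experiment in another, so the experiments were compared only through their own controls.

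Cells meet DNA damage with checkpoint kinases that halt the cycle and with repair pathways that each handle one kind of lesion. Double-strand breaks are either copied back from the sister chromatid by homologous recombination, which depends on BRCA proteins, or rejoined by end joining. The Fanconi anaemia proteins open interstrand crosslinks, mismatch repair corrects replication errors, base excision repair replaces damaged bases, and bypass polymerases copy past lesions that remain. Recombination, mismatch repair and the Fanconi anaemia pathway work mostly during and after DNA replication, and many of their genes are transcribed with those of the replication machinery, whereas end joining is available throughout the cycle.

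Between 31056296 and 40071368 reads were counted per library. The melanocyte transcription factors MITF and SOX10 were abundant in the control libraries (mean normalized counts of 13810 and 20717 in DMSO), whereas the pigment cell genes MLANA and TYR were low (27.8 and 32.4). Of markers of other cells, the 3 keratinocyte genes summed to between 0 and 7 normalized counts in each library. The 4 fibroblast genes summed to 614 to 810 in DMSO and 434 to 513 in MAPKi, mostly LUM, with means of COL1A2 of at most 0.63 and of DCN of at most 1.55. The 3 leukocyte genes summed to 1962 to 2296 in DMSO and 13715 to 14095 in MAPKi, nearly all of it the lysosomal gene CD68, while CD3E had no count in any library and PTPRC means of 15.6 and 4.43. All 8 MAPK pathway targets examined were downregulated with MAPKi, with a median log2 fold change of -5.84, as a check of the treatment. The 7 melanocytic genes summed to 47140 to 49688 in DMSO and 303993 to 383857 in MAPKi, with 5 upregulated and S100B downregulated. The small nuclear RNA RN7SK took 1.93% to 2.15% of counts in DMSO and 3.95% to 4.4% in MAPKi. The part of these shifts in the results on the repair mRNAs was not tested. The labels put replicate 1 of the Gln experiment in another experimental batch than replicates 2 and 3. Beyond this they do not say whether libraries came from separate cultures. The p-values thus measure the spread between these libraries, which may be technical.

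Promoters of the genes are shown first because many mRNAs of this list fell together with MAPKi. A RefSeq promoter of the GRCh38.p14 build, from 250 bases before to 50 bases after the annotated start, was at hand for 41 of the 49 genes, and not for RAD54B, WRN, RMI2, FANCI, NBN, ATAD5, XRCC5 and PRKDC. The following 4 belong to the mRNAs that fell most among those with a match to an E2F motif (TTTGGCGC, TTTCGCGC, TTTCCCGC or TTTGCCGC on either strand), the site of the factors that switch on S phase genes. Capitals mark the match, and each sequence is written 5′ to 3′ on the strand of the gene.
EXO1, chr1:241847954-241848253, plus strand: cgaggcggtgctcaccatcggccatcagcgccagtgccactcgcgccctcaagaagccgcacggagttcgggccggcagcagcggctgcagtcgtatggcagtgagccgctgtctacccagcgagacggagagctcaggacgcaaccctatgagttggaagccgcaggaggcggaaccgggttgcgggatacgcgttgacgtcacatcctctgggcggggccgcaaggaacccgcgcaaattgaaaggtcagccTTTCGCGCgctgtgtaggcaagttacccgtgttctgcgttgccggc
XRCC2, chr7:152676092-152676391, minus strand: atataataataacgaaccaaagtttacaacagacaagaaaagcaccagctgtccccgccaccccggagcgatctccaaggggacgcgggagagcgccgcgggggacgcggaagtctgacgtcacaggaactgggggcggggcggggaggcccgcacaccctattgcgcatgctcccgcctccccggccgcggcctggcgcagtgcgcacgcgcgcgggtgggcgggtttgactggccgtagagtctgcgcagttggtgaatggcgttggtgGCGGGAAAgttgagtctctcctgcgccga
MCM8, chr20:5950402-5950701, plus strand: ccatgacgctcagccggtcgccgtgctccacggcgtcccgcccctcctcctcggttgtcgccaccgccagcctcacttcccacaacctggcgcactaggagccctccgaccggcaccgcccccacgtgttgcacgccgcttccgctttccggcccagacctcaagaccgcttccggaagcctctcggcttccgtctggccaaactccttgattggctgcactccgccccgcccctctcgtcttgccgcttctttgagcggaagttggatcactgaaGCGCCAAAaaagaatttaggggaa
MSH6, chr2:47782895-47783194, plus strand: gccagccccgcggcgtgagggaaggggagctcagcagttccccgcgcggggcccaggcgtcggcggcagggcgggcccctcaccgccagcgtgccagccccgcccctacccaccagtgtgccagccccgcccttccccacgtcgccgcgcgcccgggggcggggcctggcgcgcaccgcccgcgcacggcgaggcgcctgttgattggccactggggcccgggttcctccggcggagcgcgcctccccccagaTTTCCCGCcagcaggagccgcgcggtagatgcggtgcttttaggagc

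In EXO1 the match began 5 bases after the start, in MSH6 4 bases after it, in XRCC2 22 and in MCM8 27 bases after it, the last 2 on the opposite strand. An E2F match was present in 9 of the 41 promoters (22.0%), those of EXO1, XRCC2, MCM8, MSH6, FANCA, FANCC, FANCD2, XRCC6 and MSH3. It was present in 3.33% of all 27305 promoters of this length and in 5.38% of those of tested genes. Of the 31 promoters whose mRNA was downregulated with MAPKi 8 had a match, and of the 10 others 1 did, that of MSH3. Of the promoters of all tested genes downregulated with MAPKi, 8.0% had a match. The promoters of RAD54L, which had the largest fall of the 49, and of BLM, RAD51AP1 and BRCA2 had none. The CCAAT motif bound by NF-Y, searched on both strands, was found in 20 of the 41 promoters (48.8%) and in 35.7% of all promoters. The TTTGAA motif (CHR), also searched on both strands, was found in 6 of 41 (14.6%) and in 15.4% of all promoters, but in 9.76% of those of tested genes. A match describes the letters in this window and is not evidence of binding.

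MAPKi lowered most of the repair mRNAs. Of the 49, 37 were downregulated, that is, by more than 1.5-fold (edgeR, p adjusted by Benjamini-Hochberg over all tested genes, threshold 0.05), when 18.8% of the 12595 tested mRNAs were. LIG4 was the 1 that was upregulated, when 16.7% of tested mRNAs were. Against no change, 42 were lower (39.8% of tested mRNAs) and 4 were higher (38.4%), namely LIG4, MSH3, ATR and NBN. Unless stated otherwise, an adjusted p printed beside a fold change is that of the test against no change. MCM9, RAD50 and TP53BP1 did not pass the test. The median log2 fold change of the 49 was -1.30, and that of all tested mRNAs -0.01. For 42 of the 49 mRNAs every MAPKi library was below every DMSO library, as for 41.1% of tested mRNAs. Less RNA per cell and fewer cells in the phases in which these genes are used cannot be told apart in such bulk samples. The mRNAs of XRCC2, BLM, EXO1, MCM8, MSH6, CHEK2, RAD18 and ATAD5 are among those the study itself chose to measure by qPCR, so these 8 are not independent evidence of the direction. The study also reported DNA repair among the functions enriched in its MAPKi-downregulated genes. The list as a whole is thus not independent of that report.

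**Figure D1:**
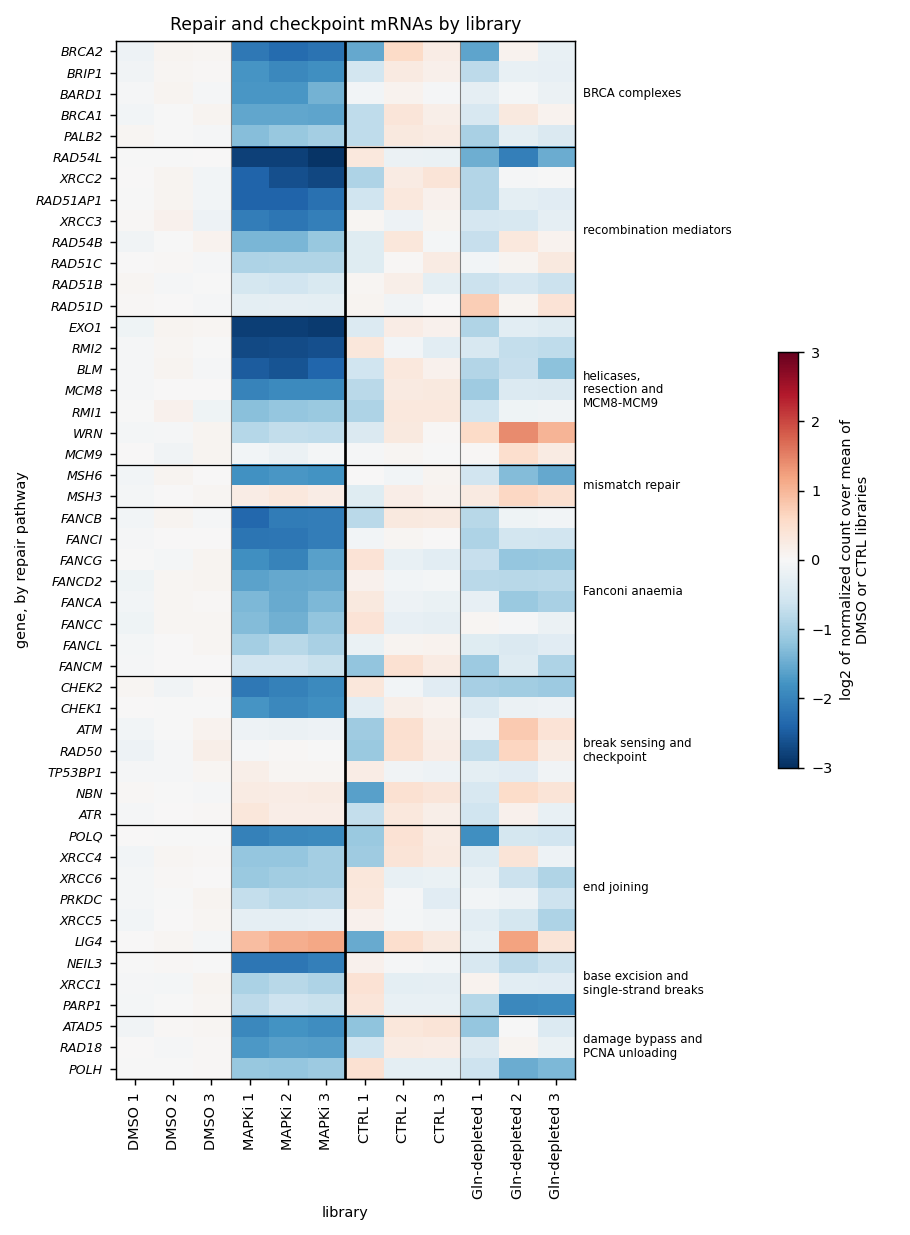
Colours give the log2 of the normalized count in each library over the mean of the 3 DMSO libraries (left 6 columns) or of the 3 CTRL libraries (right 6 columns), with blue lower and red higher, for the 49 genes ordered by repair pathway and by their MAPKi effect. The 3 MAPKi columns look alike and are mostly blue, whereas the columns of CTRL 1 and Gln-depleted 1 differ from those numbered 2 and 3.

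The BRCA complexes fell as a group, with all 5 members downregulated and a median log2 fold change of -1.62. BRCA2, a mediator of homologous recombination, fell most. Its normalized counts were 2459, 2890 and 2865 in DMSO and 621, 553 and 586 in MAPKi, a log2 fold change of -2.22 ± 0.07 (SE; adjusted p = 5.12e-09). PALB2, which bridges BRCA1 and BRCA2, fell least, from 838, 798 and 786 to 331, 370 and 396 (-1.14 ± 0.08). Even for PALB2 the highest MAPKi library lay below the lowest DMSO library. The ubiquitin ligase BRCA1 (-1.56), its partner BARD1 (-1.62) and the BRCA1-bound helicase BRIP1 (-1.85) lay between.

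Among the other recombination mediators, 6 of 8 were downregulated and all 8 were lower, but the members spread widely. RAD54L, a motor protein of homologous recombination, had 2170, 2186 and 2228 normalized counts in DMSO and 314, 314 and 286 in MAPKi. This was the largest fall of the 49 genes, 7.21-fold (log2 fold change -2.85 ± 0.05, adjusted p = 3.53e-10). XRCC3, which acts in homologous recombination, went from 1109, 1183 and 979 to 261, 243 and 262 (-2.09 ± 0.08). RAD51D, of the same pathway, changed little, with 480, 467 and 454 in DMSO and 383, 390 and 381 in MAPKi (-0.28 ± 0.07, adjusted p = 0.00346). Its groups did not overlap, yet MAPKi left 82.4% of its DMSO level, against 13.9% for RAD54L. The mediators thus differed among themselves, with XRCC2 at -2.58, RAD51C at -0.91 and RAD51B at -0.51. RAD51AP1, an accessory factor of recombination, was at -2.34 and RAD54B, a relative of RAD54L, at -1.29.

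Of the helicases, resection factors and the MCM8-MCM9 pair, 6 of 7 were downregulated, with a median of -1.94. EXO1, the nuclease that resects break ends and excises mismatches, fell from 2435, 2817 and 2788 to 380, 378 and 364 (-2.84 ± 0.07, adjusted p = 1.01e-09). RMI2, a subunit of the complex that dissolves crossed strands, fell from 1260, 1352 and 1275 to 197, 203 and 207 (-2.68 ± 0.06). The mRNA of EXO1 was left at 14% and that of RMI2 at 15.6% of the DMSO level. The BLM helicase of the same complex was at -2.49 and its other subunit RMI1 at -1.18, while the related helicase WRN was at -0.78. MCM8 and MCM9 form a helicase with each other, and their mRNAs parted. MCM8 was at -1.94, whereas MCM9 had 496, 457 and 525 normalized counts in DMSO and 469, 438 and 475 in MAPKi (-0.10 ± 0.08, adjusted p = 0.27). The groups of MCM9 overlapped.

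The 2 mismatch repair genes moved in opposite directions. MSH6, which recognizes single mismatches, had 7825, 8797 and 8335 normalized counts in DMSO and 2377, 2485 and 2408 in MAPKi (-1.78 ± 0.05, adjusted p = 2.86e-09). MSH3, which recognizes larger loops, had 1686, 1774 and 1844 in DMSO and 2055, 2218 and 2048 in MAPKi (0.25 ± 0.05, adjusted p = 0.00124). Neither gene had overlapping groups. Both promoters contain an E2F match.

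All 8 Fanconi anaemia mRNAs were lower and 7 were downregulated. FANCB, a subunit of the core ubiquitin ligase, fell from 1329, 1489 and 1370 to 271, 326 and 329 (-2.18 ± 0.08). FANCI, which is ubiquitinated with FANCD2 at crosslinks, fell from 5509, 5714 and 5694 to 1244, 1257 and 1345 (-2.14 ± 0.05, adjusted p = 6.38e-10). FANCM, the translocase that anchors the core complex, went from 1105, 1137 and 1146 to 757, 764 and 710 (-0.60 ± 0.05). FANCM was lower with no overlap but did not pass the 1.5-fold threshold. The core subunits FANCG (-1.81), FANCA (-1.40), FANCC (-1.30) and the catalytic subunit FANCL (-0.94) ranged between these values, and FANCD2 was at -1.55.

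Of the 7 break sensing and checkpoint mRNAs 2 were downregulated, 3 were lower and 2 higher. Of all tested mRNAs 18.8%, 39.8% and 38.4% were, so these counts are near those shares. CHEK2, an effector kinase, had 1041, 939 and 1029 normalized counts in DMSO and 226, 247 and 266 in MAPKi (-2.02 ± 0.08, adjusted p = 1.35e-08). CHEK1, the other effector kinase, had 1548, 1527 and 1530 in DMSO and 448, 401 and 430 in MAPKi (-1.85 ± 0.06, adjusted p = 2.79e-09). Both were thus downregulated, with no overlap. ATR, the kinase of replication stress, had 3434, 3540 and 3599 in DMSO and 4445, 4038 and 4059 in MAPKi (0.25 ± 0.05, adjusted p = 0.00125), and ATM, that of breaks, was at -0.16 (adjusted p = 0.0193). The break sensors NBN (0.24) and RAD50 (0.00, adjusted p = 0.972), both of the MRN complex, and the chromatin reader TP53BP1 (0.10, adjusted p = 0.109) also had log2 fold changes of small size. In the fit of all 12 libraries LIG4, MSH3, ATR and NBN were not called higher, nor RAD51D, FANCM, ATM, XRCC5 and PARP1 lower (adjusted p between 0.0554 and 0.732). A correction for GC content ended the calls of RAD51D (adjusted p = 0.0602) and ATM (0.219) and added TP53BP1 as higher (0.22, adjusted p = 0.00214), and ATM was not called without MAPKi replicate 2 (0.0583) or DMSO replicate 3 (0.074).

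**Figure D2:**
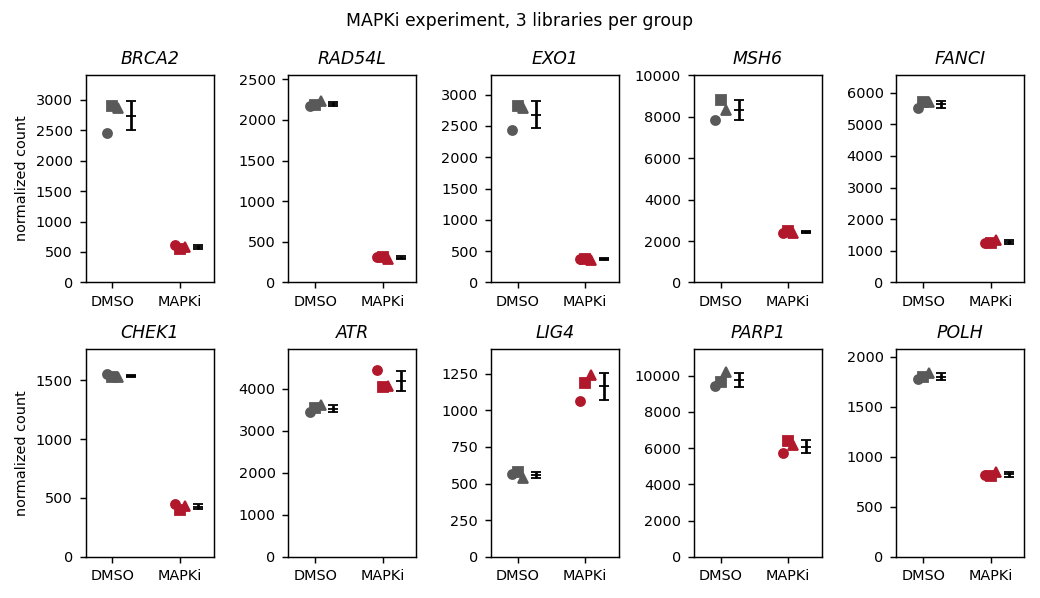
Normalized counts of 10 genes in the 3 DMSO (grey) and 3 MAPKi (red) libraries, with the mean and SD in black; circles, squares and triangles are replicates 1, 2 and 3. No gene shown has overlapping groups, and ATR and LIG4 are the ones higher in MAPKi.

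End joining held both directions. The Ku subunits XRCC6 and XRCC5 and the kinase PRKDC, which together hold broken ends, were the most abundant members per length, at 10225, 6190 and 5256 normalized counts per kilobase of transcript in DMSO, and their log2 fold changes were -1.06, -0.26 and -0.77. POLQ, the polymerase of microhomology-mediated joining, fell from 2976, 2900 and 2921 to 719, 764 and 776 (-1.96 ± 0.04, adjusted p = 7.52e-10). LIG4, the ligase that seals the ends, rose from 564, 579 and 535 to 1062, 1188 and 1240 (1.06 ± 0.07, adjusted p = 4.4e-07). LIG4 thus reached 208% of its DMSO level while the mRNA of XRCC4, its obligate partner, was at -1.10.

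The 3 base excision and single-strand break mRNAs were all downregulated. NEIL3, a glycosylase that also unhooks crosslinks, fell from 666, 688 and 667 to 151, 149 and 163 (-2.13 ± 0.07). PARP1, which marks breaks with poly(ADP-ribose), fell from 9421, 9679 and 10220 to 5711, 6402 and 6160 (-0.68 ± 0.06, adjusted p = 2.05e-06). Against the 1.5-fold threshold its adjusted p was 0.0448, close to the limit of 0.05. PARP1 kept 62.3% of its DMSO level and NEIL3 22.9%. XRCC1, the scaffold of single-strand break repair, was at -0.90.

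The 3 bypass and PCNA unloading mRNAs were downregulated too. ATAD5, which unloads PCNA from finished DNA, fell from 1444, 1595 and 1597 to 406, 448 and 425 (-1.86 ± 0.06). POLH, the polymerase that copies past UV dimers, fell from 1773, 1792 and 1837 to 816, 804 and 846 (-1.13 ± 0.05, adjusted p = 1.65e-08). Neither had overlapping groups. RAD18, which ubiquitinates PCNA to call bypass polymerases, was at -1.67.

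Other genes of the same pathways were read in the same fit. Of 95 such genes 89 were tested, with a median log2 fold change of -0.34. Of these, 30 were downregulated and 3 upregulated, when 18.8% and 16.7% of all tested mRNAs were. The median was -1.13 for checkpoint genes, of which 10 of 13 were downregulated, such as CDC25A (-2.88), the phosphatase that CHEK1 targets, the CHEK1 activator CLSPN (-2.38), the clamp subunit RAD1 (-1.15), TOPBP1 (-1.13), which activates ATR, and the break-marking histone H2AX (-1.66). It was -0.28 for other recombination and crosslink genes (9 of 27), -0.31 for other base excision genes (4 of 17), -0.50 for other bypass genes (3 of 10), -0.17 for other end joining genes (1 of 5) and -0.04 for nucleotide excision repair, where 3 of 17 were downregulated. Nucleotide excision repair, which removes bulky lesions, thus held mRNAs near no change such as ERCC3 (0.04) and ERCC4 (-0.04). The uracil glycosylase UNG (-1.76), the nuclease subunit EME1 (-2.05) and the Fanconi anaemia ubiquitin conjugase UBE2T (-1.96) fell as far as most of the 49. The 10 genes induced by p53 after damage were mixed, with 4 upregulated, among them CDKN1A (1.03), and 1 downregulated, GADD45A (-0.98).

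**Figure D3:**
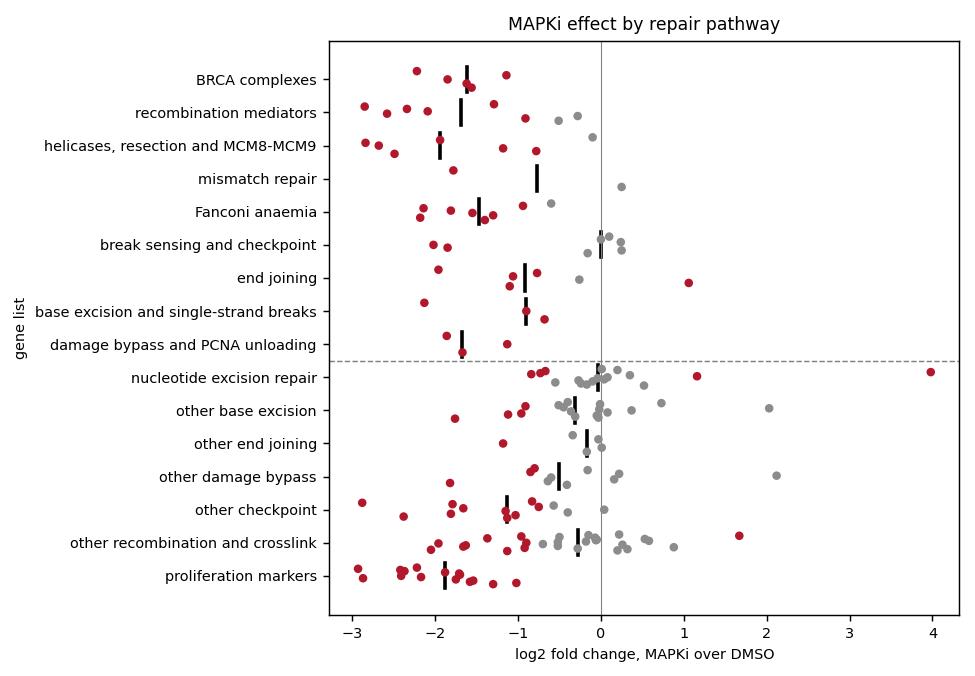
Each point is the log2 fold change of 1 gene with MAPKi, in red where it was down- or upregulated and grey otherwise, with the median of each list as a bar; the lists above the dashed line hold the 49 genes, those below it other genes of the pathways and proliferation markers. Medians of the 9 groups of the 49 lie between -1.94 and 0.00, and GTF2H1, with a mean of only 17.4 normalized counts in DMSO, is the point at 3.98.

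Proliferation markers moved with these mRNAs. All 15 examined, among them MKI67, PCNA, E2F1 and the MCM2 to MCM7 genes, were downregulated with MAPKi (median -1.88). Their summed level was between 143147 and 153604 normalized counts in the DMSO libraries and between 44033 and 44903 in the MAPKi libraries. In the Gln experiment the sums were 122988 to 154511 in CTRL and 61290 to 85343 in Gln-depleted libraries, where 1 of the 15 was downregulated and 8 were lower. With the replicate number as a block 10 of the 15 were downregulated and 13 lower in that experiment (median -1.09). The part of proliferation in the changes of the repair mRNAs was not tested.

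The Gln experiment was less uniform, and replicate 1 of both groups stood apart. By the labels, replicate 1 belonged to a different experimental batch from the other two. In CTRL, 30 of the 49 mRNAs were lowest and 16 were highest in replicate 1, and in DMSO 30 and 7 were. The size of the deviation differed. The ratio of replicate 1 to the mean of replicates 2 and 3 ranged from 0.855 to 1.06 in DMSO (median 0.964). In CTRL it ranged from 0.24 to 1.68 (median 0.702) and in Gln-depleted libraries from 0.348 to 2.08 (median 0.823). NBN, for instance, had 768, 3296 and 3089 normalized counts in CTRL and 1713, 3513 and 3123 in Gln-depleted libraries 1, 2 and 3, and BRCA2 had 536, 2312 and 1821 in CTRL and 522, 1661 and 1333 in Gln-depleted. PARP1 stood apart the other way, with 11227, 7388 and 7382 in CTRL. Since libraries of the same number deviated together, values with the replicate number as a block are also given, and the counts also without both libraries numbered 1, a choice made after seeing the data.

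Gln depletion called few of the 49. RAD54L was downregulated, the only one of 49, when 2.1% of 12514 tested mRNAs were, and 0 were upregulated (3.48% of tested mRNAs; edgeR). At an unadjusted p under 0.05, 1 was above the threshold, and DESeq2 also called 0. Against no change 8 were lower (8.43% of tested mRNAs) and 1 was higher (9.45%). The 8 were RAD54L, MSH6, FANCD2, FANCG, FANCI, CHEK2, PARP1 and POLH, and the higher one was WRN. The median log2 fold change was -0.39, against 0.00 over all tested mRNAs. For 17 of the 49 every Gln-depleted library was below every CTRL library, as for 19.8% of tested mRNAs. Within the 3 pairs of the same number, 29 of the 49 were lower in 3 of 3 pairs (59.2%), as 34.7% of tested mRNAs were.

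With the replicate block 7 were downregulated (7.84% of tested mRNAs), adding MSH6, FANCG, CHEK2, POLQ, PARP1 and POLH to RAD54L. WRN was then upregulated (8.85%), 23 were lower (23.8%) and 4 higher (25.1%), the latter being WRN, MSH3, ATM and LIG4. Without both libraries numbered 1, 4 were downregulated (5.13% of tested mRNAs), 21 lower (17%) and 1 higher (17.9%). Without CTRL replicate 2 or without Gln-depleted replicate 2, 0 were downregulated (0.544% and 0.52% of tested mRNAs) and 1 was lower (3.19% and 2.22%). Without CTRL replicate 3 or Gln-depleted replicate 3 the lower ones were 3 and 2 (3.68% and 4.6% of tested mRNAs), so that the calls over all mRNAs became fewer too. Without Gln-depleted replicate 1, 3 were downregulated (3.35% of tested mRNAs). The single higher call was lost without CTRL replicate 1, 2 or 3 or Gln-depleted replicate 2 or 3, when 8.66%, 3.97%, 4.26%, 3.84% and 5.09% of tested mRNAs were higher.

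RAD54L was again the mRNA that fell most. Its normalized counts were 2831, 1991 and 1970 in CTRL and 818, 550 and 812 in Gln-depleted libraries (-1.64 ± 0.25, adjusted p = 0.00533; with the block -1.64, adjusted p = 0.000245). Every Gln-depleted library lay below every CTRL library, and the mean level was 32.1% of CTRL. XRCC3 had 1458, 1258 and 1492 in CTRL and 997, 1003 and 1166 in Gln-depleted libraries (-0.41 ± 0.18, adjusted p = 0.149; with the block 0.0212). RAD51D had 573, 505 and 542 and then 904, 568 and 717 (0.43 ± 0.23, adjusted p = 0.208; with the block 0.0566). The groups of XRCC3 were apart, and those of RAD51D overlapped by 1 pair of libraries only, CTRL 1 and Gln-depleted 2.

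PARP1 had the next lowest log2 fold change with Gln depletion. It had 4763, 2252 and 2328 normalized counts in Gln-depleted libraries beside the CTRL values above (-1.48 ± 0.34, adjusted p = 0.0221; with the block -1.54, adjusted p = 0.000223; without both libraries numbered 1 -1.69, adjusted p = 0.00156). Each Gln-depleted library lay below its CTRL partner and below all CTRL libraries. POLH had 2411, 1441 and 1428 in CTRL and 1150, 632 and 690 in Gln-depleted (-1.09 ± 0.31, adjusted p = 0.0451; with the block 0.000368). MSH6 had 6558, 6183 and 6884 in CTRL and 4368, 2675 and 2260 in Gln-depleted (-1.08 ± 0.26, adjusted p = 0.0274; with the block 0.00239). The groups of both genes were apart.

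CHEK2 fell from 1121, 845 and 704 to 447, 433 and 417 (-1.04 ± 0.23, adjusted p = 0.0186; with the block 0.00189), while CHEK1 went from 1226, 1737 and 1642 to 1155, 1368 and 1383 (-0.24 ± 0.21, adjusted p = 0.446; with the block 0.142). The groups of CHEK1 overlapped. FANCD2 had 2130, 1854 and 1864 in CTRL and 1111, 1097 and 1105 in Gln-depleted libraries (-0.82 ± 0.17, adjusted p = 0.0168; with the block 0.0012), and its partner FANCI had 4658, 5182 and 5008 and then 2612, 3395 and 3346 (-0.67 ± 0.19, adjusted p = 0.0421; with the block 0.00266). Both were thus lower and apart, though neither passed the 1.5-fold threshold, with the block or without it. FANCG was at -0.98 (adjusted p = 0.0382; with the block 0.00145). Leaving out single libraries raised the adjusted p of each of these calls other than that of RAD54L above 0.05 for at least 1 library, up to 0.0738 for CHEK2, 0.0756 for FANCD2, 0.127 for FANCI, 0.137 for FANCG, 0.109 for MSH6, 0.0873 for PARP1 and 0.159 for POLH.

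WRN rose, from 539, 899 and 746 in CTRL to 1092, 1931 and 1473 in Gln-depleted libraries (1.04 ± 0.28, adjusted p = 0.0371; with the block 0.000537). All 3 Gln-depleted libraries lay above all CTRL libraries, at a mean level of 206% of CTRL. LIG4 had 218, 882 and 763 in CTRL and 531, 1441 and 812 in Gln-depleted (0.58 ± 0.53, adjusted p = 0.468), so that the groups overlapped although each pair was higher, and the block gave an adjusted p of 0.0351. MSH3 had 1030, 1504 and 1428 and then 1589, 2016 and 1848 (0.46 ± 0.21, adjusted p = 0.165; with the block 0.0124). The groups of MSH3 did not overlap.

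The rest of the genes read by library in the MAPKi experiment changed less clearly. POLQ had 1097, 3161 and 2819 in CTRL and 657, 1626 and 1591 in Gln-depleted libraries (-0.87 ± 0.45, adjusted p = 0.211), where CTRL 1 alone lay within the range of the Gln-depleted libraries. With the block it passed (-0.84, adjusted p = 0.00108). EXO1 had 1751, 2707 and 2529 in CTRL and 1242, 1861 and 1777 in Gln-depleted (-0.52 ± 0.25, adjusted p = 0.173; with the block 0.00675). RMI2 had 1311, 981 and 839 and then 742, 635 and 616 (-0.65 ± 0.23, adjusted p = 0.0789; with the block 0.00768). Both were lower within each pair, and of the 2 only RMI2 had groups that did not overlap. NEIL3 had 620, 556 and 536 and then 411, 330 and 363 (-0.63 ± 0.20, adjusted p = 0.0629; with the block 0.00938). PALB2 had 486, 1008 and 986 and then 422, 678 and 614 (-0.53 ± 0.32, adjusted p = 0.272; with the block 0.0297). Both were thus also called lower with the block only. BRCA2 (-0.41, with the block -0.33 and adjusted p = 0.073) was not called in either fit. FANCB had 810, 1738 and 1723 in CTRL and 802, 1304 and 1353 in Gln-depleted (-0.30 ± 0.33, with the block 0.123). ATAD5 had 484, 1399 and 1445 in CTRL and 493, 1108 and 832 in Gln-depleted (-0.45 ± 0.44, with the block 0.11). ATR had 1437, 2948 and 2670 in CTRL and 1563, 2551 and 2030 in Gln-depleted (-0.20 ± 0.30, with the block 0.346). None of the 3 was called in either fit. MCM9, with 462, 487 and 464 in CTRL and 480, 669 and 556 in Gln-depleted, was not called either (0.27 ± 0.21, adjusted p = 0.385; with the block 0.193). FANCM had 360, 1121 and 966 and then 385, 623 and 426 (-0.77 ± 0.41, adjusted p = 0.214; with the block 0.0538). The pathway medians ran from -0.70 for Fanconi anaemia genes to -0.20 for break sensing and checkpoint genes. In these groups 3 of 8 and 1 of 7 were lower, when 8.43% of tested mRNAs were.

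**Figure D4:**
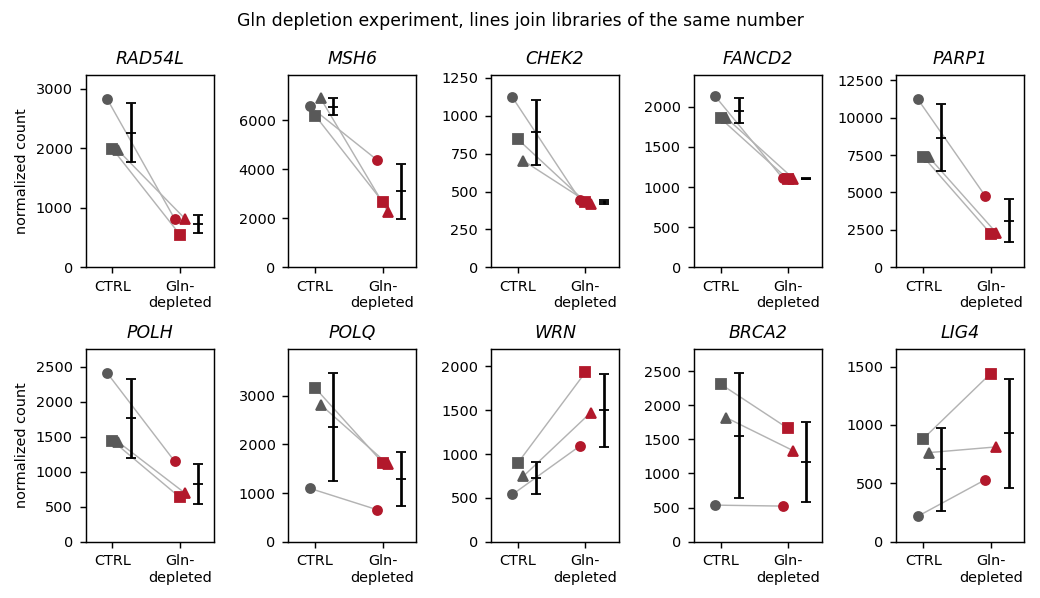
Normalized counts of 10 genes in the 3 CTRL (grey) and 3 Gln-depleted (red) libraries, with the mean and SD in black; circles, squares and triangles are replicates 1, 2 and 3, and lines join libraries of the same number. Replicate 1 lies apart for BRCA2, POLQ and LIG4, while the lines of RAD54L, MSH6, CHEK2, FANCD2, PARP1 and POLH all fall and those of WRN all rise.

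Of the 95 other genes of these pathways 91 were tested with Gln depletion, with a median of -0.02. Of these, 8 were lower and 3 higher, when 8.43% and 9.45% of all tested mRNAs were. The checkpoint activator CLSPN (-1.51) and UBE2T (-1.50) were downregulated, as were 2.1% of all tested mRNAs. With the block 19 were lower and 17 higher, when 23.8% and 25.1% of all tested mRNAs were. Among the p53-induced genes GADD45A (3.13), CDKN1A (1.48) and BBC3 (1.43) were upregulated (4 of 10 with the block), and GADD45A thus moved against its MAPKi effect.

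The effects of the 2 treatments were then compared in a contrast over the 12 libraries. For 26 of the 49 the MAPKi effect was lower than that of Gln depletion, when this held for 20.9% of 12627 tested mRNAs, and for 0 it was higher (19.6% of tested mRNAs; edgeR). At an unadjusted p under 0.05, 2 were higher, and DESeq2 called 0 higher. The GC correction gave 4 higher (2971 of 12578 tested mRNAs), and the experimental batch also 4 (3585 of 12627). The block with the GC correction gave 5 higher (3620 of 12578). With the replicate block 37 were lower (32.1% of tested mRNAs) and 3 were higher (29%). The lowest adjusted p belonged to XRCC3 (difference -1.63 ± 0.17, adjusted p = 2.6e-05), EXO1 (-2.27 ± 0.25), FANCI (-1.41 ± 0.16), RMI2 (-1.97 ± 0.23) and CHEK1 (-1.55 ± 0.19). The 26 held 4 of 5 genes of the BRCA complexes, 7 of 8 of the other recombination mediators and 5 of 7 helicase and resection genes, but no end joining gene, where the block called 4 of 6 lower and 1 higher. WRN differed by -1.77 ± 0.29 (adjusted p = 0.000562), being lower with MAPKi and higher with Gln depletion.

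The 2 effects on POLH differed by 0.02 ± 0.35, an error that leaves room for either direction. PARP1 differed by 0.85 ± 0.38, which did not pass the test (adjusted p = 0.0922), but did with the block (0.91, adjusted p = 0.000535). RAD54L fell in both and further with MAPKi (-1.15 ± 0.26, adjusted p = 0.00421). MSH6 (-0.65, adjusted p = 0.082) and FANCG (-0.78, adjusted p = 0.0567) did not pass, and with the block their adjusted p were 0.0434 and 0.0016.

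**Figure D5:**
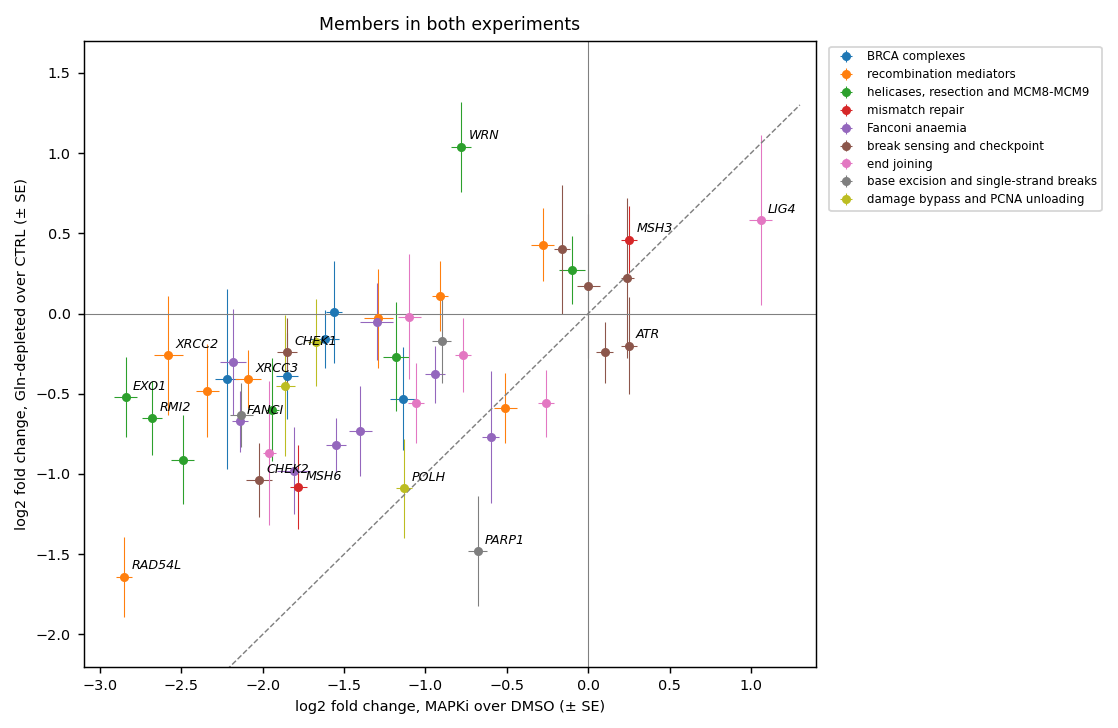
Each point is 1 of the 49 genes, with its log2 fold change with MAPKi on the horizontal and with Gln depletion on the vertical axis, bars of 1 SE and colours for the repair pathway; the dashed line marks equal effects. Most points lie left of the line, POLH lies on it, PARP1 below it, and WRN is the point that is lower with MAPKi and called higher with Gln depletion.

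Since the study asked about proteins rich in Glu and Asp, the reference proteins of the 49 genes were read for composition. Glu and Asp made up a median of 12.9% of residues (range 8.93% in NEIL3 to 19.2% in XRCC4), against 11.9% for the 12550 tested genes with a complete coding sequence, and 37 of the 49 were above that value. The 37 downregulated members had a median of 12.9% and the 12 others 13%. All 2365 tested genes downregulated with MAPKi that had a sequence had a median of 12.1%. XRCC4, with the highest share, was downregulated with MAPKi (-1.10), and RAD50, with 18.2%, did not pass the test. The codons GAA and GAT were frequent, at medians of 4.79% and 3.46% of codons beside 2.77% and 2.10% of tested genes, and 42 and 44 of the 49 were above those medians. The share of G or C at the third codon position was low (37.6% beside 58.6%), with 8 of 49 above the median of tested genes, and the proteins were long (a median of 846 residues beside 476). Across the 49 genes the Spearman correlation of the MAPKi log2 fold change with the Glu plus Asp share was 0.17, and across 12550 tested genes it was -0.10. With the Gln depletion effect it was 0.12 across the 49 and 0.03 across 12248 tested genes. For the same effect it was 0.31 and 0.15 with the GAA share and -0.29 and -0.18 with the GC share at that codon position. With the GC content of the transcript it was -0.38 and -0.19. For these measures the MAPKi effect gave 0.12, 0.00 and -0.03 across the 49. Across 12550 tested genes it gave -0.12, 0.11 and 0.09. These are descriptions across genes that share the same libraries, and genes are not independent replicates.

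Several genes share exon bases with others in the GENCODE annotation, and how such reads were assigned could change their level. The share was 91.0% of exon bases for RAD50, 65.5% for RAD54B, 36.0% for TP53BP1, 34.2% for XRCC3, 33.5% for MCM8, 27.4% for FANCA, 27.3% for FANCL, 26.2% for RAD54L and 22.7% for XRCC1. CHEK2, FANCD2 and BRCA1 have pseudogene copies, so that their counts may be uncertain, to an extent that was not examined.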

How the data were processed

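Libraries of A375 cells, 3 in each of 4 groups, were sequenced. Per the labels and the methods, the authors processed the reads with fastp 0.20.1, aligned them to GRCh38.p13 with HISAT2 2.2.1 and counted them with HTSeq 0.13.5 (versions and build from the submitters' processing notes), and the deposited values are raw counts per gene. Of 44659 genes, 36524 were matched to RefSeq by symbol and 513 by an older symbol. Protein-coding genes whose normalized counts averaged 10 or more, all 49 genes among them, were tested with edgeR 4.0.16 in R 4.3.3 (TMM, quasi-likelihood fits with treatment alone). Down- and upregulation was tested against a 1.5-fold change (glmTreat) and lower or higher levels against no change, both at 0.05 after Benjamini-Hochberg adjustment over all tested genes. Normalized counts are counts scaled by the TMM library sizes of the experiment. The study used DESeq2, which was an alternative (1.42.0). The procedure was tested on simulated counts of independent libraries. These had no batch or pairing, so the test does not cover libraries of the same number that deviate together.

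In the Gln experiment the deviations of libraries of the same number correlated at 0.573, 0.427 and 0.378 across genes, and the labels give an experimental batch, so blocked values are printed beside its results. The 49 genes and the other lists were chosen with earlier results of these data known. Values per library are given for the genes with the lowest and highest MAPKi effect of each pathway, those down- or upregulated with Gln depletion, and the 5 with the lowest adjusted p of the difference (for protein sequences the rule could not be applied). NBN, WRN and FANCD2 were added with Gln values after these were seen. Coding sequences came from GENCODE v44 (MANE Select where given). Other alternatives were size factors, thresholds, count limits, all genes, all 12 libraries, a GC correction, the experimental batch and each library left out. Library totals were 31056296 to 40071368 counts.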

Additional observations from a re-analysis of the deposited data

Results flagged for a closer look

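The effect of MAPKi differed from that of Gln depletion for 26 genes of the list by a test of the difference itself (edgeR, contrast over 12 libraries), with the MAPKi effect the lower one in each case. The difference in log2 fold change was largest for XRCC2 and EXO1, both at -2.27, followed by the dissolution subunit RMI2 (-1.97), RAD51AP1 (-1.82), FANCB (-1.82), WRN (-1.77) and BRCA2 (-1.76). It was -1.63 for XRCC3, -1.55 for CHEK1, -1.53 for BLM, -1.52 for BRCA1, -1.44 for both NEIL3 and RAD18, -1.41 for both BARD1 and FANCI, and -1.40 for BRIP1. Smaller differences were those of ATAD5 (-1.36), MCM8 (-1.29), RAD54B (-1.21), FANCC (-1.19), RAD54L (-1.15), RAD51C (-0.96), CHEK2 (-0.92), FANCD2 (-0.67), RAD51D (-0.66) and FANCL (-0.51). Some of these calls lay near the limit (adjusted p = 0.0468 for BRCA2 and 0.046 for ATAD5) and were lost when single libraries were left out. Those of BRCA2 and ATAD5 (adjusted p up to 0.12) and RAD51D (up to 0.0698) were lost without any 1 of the MAPKi and DMSO libraries. They were also lost without Gln-depleted 2 or 3 for BRCA2 and ATAD5, without CTRL 3 for BRCA2, and without CTRL 2, CTRL 3 or Gln-depleted 1 for RAD51D. That of FANCL was lost without MAPKi 1 (adjusted p = 0.0581). With the replicate block all 4 were called in edgeR. Their adjusted p were then 2.96e-05 for BRCA2 (-1.83 ± 0.15), 0.000284 for ATAD5 (-1.42 ± 0.18), 0.00804 for RAD51D and 0.0066 for FANCL. The experiments were sequenced in different batches, which cannot be told apart from the treatments except through each experiment's own controls.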

How the results depend on the processing

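With MAPKi, the counts of downregulated and lower genes stayed within 1.5 times under every alternative run, with 36 to 37 downregulated when single libraries were left out. The replicate numbers paired the MAPKi and DMSO libraries only weakly. Correlations were 0.0593 to 0.0651 for the same number and -0.0345 to -0.0266 for different numbers. With the replicate block 37 were again downregulated and 42 lower, when 2427 and 5121 of 12595 tested mRNAs were. A log2 threshold of 1 and the fit of all 12 libraries each gave 0 upregulated, when 1017 of 12595 and 1372 of 12627 tested mRNAs were. The fit of all 12 libraries also gave 0 higher, when 3017 of 12627 tested mRNAs were. The log2 fold change of RAD50, near 0, turned to 0.01 with DESeq2's size factors, DESeq2, all genes or all 12 libraries, to 0.00 with the block, to 0.09 with the GC correction, alone or with the block, and ranged from -0.06 to 0.10 without single libraries. That of MCM9 turned to 0.03 with either GC correction.

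With Gln depletion, the downregulated genes numbered 0 at an adjusted p of 0.01 or a threshold of 1, 6 with all 12 libraries or the experimental batch, 2 with the GC correction, 7 with the block, alone or with the GC correction, 4 without both libraries numbered 1, and 0 to 3 without single libraries; 1 was upregulated with the block or the batch. The lower genes numbered 1 at an adjusted p of 0.01, 18 with all 12 libraries or the GC correction, 23 with the block, 31 with the block and the GC correction, 22 with the batch, 21 without both libraries numbered 1, and 1 to 8 without single libraries. The higher ones numbered 0 at an adjusted p of 0.01, 4 with the block and 3 with the batch. They numbered 2 with all 12 libraries or with the block and the GC correction, and 0 to 1 without single libraries. Calls over all tested mRNAs moved as well. Of 12514, 222 were lower and 394 higher at an adjusted p of 0.01, and 2979 and 3147 with the block. The batch gave 2689 and 2929, and all 12 libraries gave 2827 and 2372 of 12627. The GC correction gave 2016 and 1967 of 12465, and with the block 3149 and 2971. Without single libraries 278 to 1403 were lower and 480 to 1331 higher. The median log2 fold change was -0.56 with the GC correction, alone or with the block, and -0.49 to -0.29 without single libraries. Over all tested mRNAs the downregulated numbered 50 of 12514 at an adjusted p of 0.01 and 63 at a threshold of 1. They numbered 981 with the block, 869 with the batch and 906 of 12627 with all 12 libraries. The GC correction gave 568 of 12465, and with the block 963. Without both libraries numbered 1 they were 640 of 12472, and without single libraries 65 to 418. Upregulated were 1107 with the block and 1022 with the batch.

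Genes whose effects differed numbered 40 with the block, alone or with the GC correction, and without both libraries numbered 1. They numbered 41 with the batch and 22 to 34 without single libraries. Over all tested mRNAs the MAPKi effect was lower for 4056 and higher for 3661 of 12627 with the block. With the block and the GC correction it was lower for 3848 and higher for 3620 of 12578. The batch gave 4026 and 3585 of 12627, and leaving out both libraries numbered 1 gave 3917 and 3585 of 12623. Without single libraries it was lower for 2188 to 3028 and higher for 1996 to 3064. The difference of POLH turned to -0.01 with DESeq2's size factors and DESeq2, and ranged from -0.29 to 0.35 without single libraries, turning for 6 of them. That of FANCM ranged from -0.10 (without CTRL replicate 2) to 0.57. The CHR motif was 4.84 percentage points more frequent than in promoters of tested genes, but less frequent than in all promoters. The cause of these changes was not tested.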
